A study of Mus musculus with 3 samples.

Results

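*Cecr2* and 8 further genes of the ISWI family of chromatin remodelers were followed in RNA-Seq counts from the rostrum, or front of the head, of mouse embryos. The 9 genes were taken as a named family, with earlier results of these data known, and are the ATPases *Smarca1* and *Smarca5* and their large regulatory partners *Cecr2*, *Bptf*, *Rsf1*, *Baz1a*, *Baz1b*, *Baz2a* and *Baz2b*. All 9 have a row among the 24062 gene symbols counted, and all 9 were among the 13014 genes that had 20 counts or more when both libraries were summed, which are called tested genes here. The *tuft* embryos were homozygous for a nonsense mutation in *Tet1*, which arose spontaneously in the 3H1 colony, and had neural tube defects. The wild-type embryos came from the 3H1 Balb background strain, and the labels name no agent for either group. Both groups were at E9 with 18 to 22 somites, and RNA of 3 embryos was pooled per library. Counts of 1 library per genotype were analyzed, so no value has a replicate error and no test between genotypes was possible. The labels list 2 *tuft* samples, and the *tuft* counts could belong to either of them or to both together.

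ISWI remodelers use ATP to slide and space nucleosomes. The ATPase, SMARCA1 (SNF2L) or SMARCA5 (SNF2H), works together with a large partner that binds histones or DNA and names the complex. CECR2 with SMARCA1 forms CERF, a complex known for its role in closure of the cranial neural tube, and BPTF with SMARCA1 forms NURF. SMARCA5 pairs with BAZ1A in ACF and CHRAC, with BAZ1B in WICH, with BAZ2A in NoRC, which silences ribosomal RNA genes, and with RSF1 in RSF. TET1, the protein mutated in *tuft*, oxidizes methylated cytosine, which lies mainly in CpG dinucleotides.

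The *tuft* library held 6433067 counts on genes and the wild-type library 14251942, 2.22 times as many. Of the entries that the counting tool reported, 27.4% in *tuft* and 37.3% in wild type lay on genes. These totals thus do not stand for sequencing depth alone. Levels are given as CPM, counts scaled to a library total of 1000000. The upper limit that a count of 0 allows, 3 counts, equals 0.466 CPM for *tuft* and 0.210 CPM for wild type. Fold changes are *tuft* over wild type after trimmed mean of M-values (TMM) scaling, with exact 95% Clopper-Pearson intervals that cover counting error only. A gene is said to be past the 2-fold limit when its fold change is 2 or more, or 0.5 or less. The libraries differed widely: 61.9% of the tested genes were past this limit, 39.3% lower and 22.6% higher in *tuft*, and their median log2 fold change was -0.39. *Tet1*, in which a nonsense mutation need not lower the RNA, had 32 counts in *tuft* against 435 in wild type. Neuroectoderm, head mesenchyme and surface ectoderm markers had summed levels of 673, 526 and 779 CPM in *tuft* and 594, 242 and 611 CPM in wild type. In each of these lists 1 marker was lower past the limit, against 2 of 7, 3 of 7 and 1 of 6 that were higher, and *Prrx2* of the mesenchyme list was at 0 in *tuft*. *Rax*, an early forebrain and eye field gene of the neuroectoderm list, had 2 counts in *tuft* against 389 in wild type. The 6 yolk sac markers, 4 of them lower past the limit and 1 higher, summed to 215 CPM in *tuft*, with *Apoa4* at 0, and to 1453 CPM in wild type. The 5 endothelial markers, 4 of them lower, summed to 67.5 CPM in *tuft*, with *Pecam1* at 0, and to 277 CPM in wild type. The 5 blood markers, 3 of them higher and 1 lower, went the other way, with 35525 CPM in *tuft* and 3192 CPM in wild type, and the 4 heart markers were at 0.311 and 2.81 CPM, with *Myl7*, *Tnnt2* and *Nppa* at 0 in *tuft*. The part of these differences in the values below was not tested. In dissected tissue, fewer cells that express a gene cannot be told apart from less RNA per cell.

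Of the 9 ISWI genes, 6 were past the 2-fold limit (66.7%, against 61.9% of all tested genes). *Cecr2*, *Bptf*, *Baz1a* and *Baz2a* were lower (44.4%, against 39.3%), and *Smarca1* and *Baz2b* were higher (22.2%, against 22.6%). *Smarca5*, *Baz1b* and *Rsf1* were within the limit. These shares are near those of all tested genes, so the number of ISWI genes past the limit does not set the family apart. The median log2 fold change of the 9 genes was -0.97, with a range from -3.43 to 2.44.

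**Figure D1:**
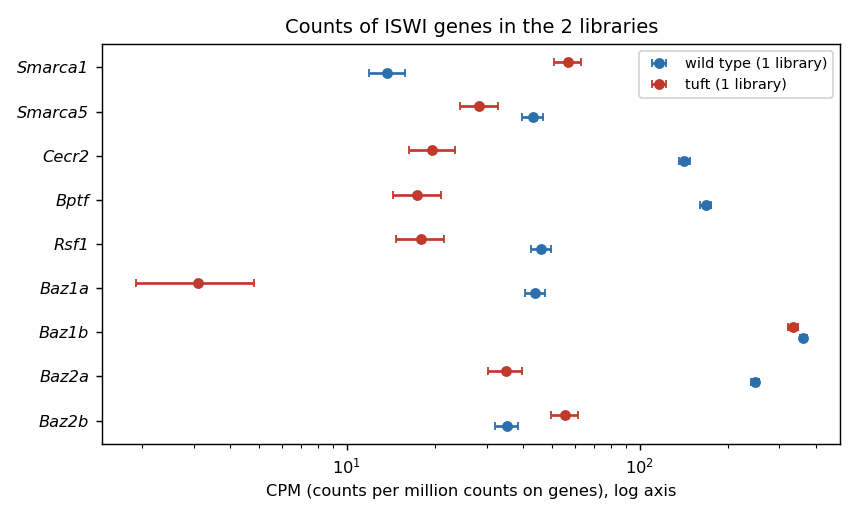
Level of each of the 9 genes in CPM (log axis) in the wild-type (blue) and the *tuft* library (red), 1 library each, with exact 95% Poisson intervals for counting error as bars. *Cecr2*, *Bptf*, *Baz1a* and *Baz2a* sit far to the left in *tuft*, *Smarca1* and *Baz2b* to the right, and *Baz1b* is the highest in both libraries.

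*Cecr2*, which encodes the bromodomain partner of SMARCA1 in CERF, lies on chromosome 6 (120666314 to 120771191 in GRCm38, the build of all positions given here). *Cecr2* had 126 counts in *tuft*, 19.6 CPM (exact Poisson interval 16.3 to 23.3), and 2025 counts in wild type, 142 CPM (136 to 148). The counting intervals are far apart, with the *tuft* library the low one. The fold change was 0.181 (0.150 to 0.217), that is 5.52-fold lower in *tuft* (4.61 to 6.66). Among all tested genes, 18.4% had a still lower fold change. Genes with few counts vary more, and among the 2534 tested genes with 1000 to 3000 counts in wild type, as *Cecr2* had, this share was 7.50%. The 3 tested genes nearest to *Cecr2* in normalized level over the 2 libraries were *Hsbp1*, *Anapc7* and *Ttll4*, at distances of 0.0071, 0.035 and 0.12 on the log2 scale. With 2 libraries, such likeness means only a similar level and a similar fold change.

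The catalytic partner of CECR2 in CERF went the opposite way. *Smarca1* (chromosome X, 47809370 to 47892613) had 365 counts in *tuft*, 56.7 CPM (51.1 to 62.9), and 196 in wild type, 13.8 CPM (11.9 to 15.8). The library with fewer counts on genes thus had more reads of *Smarca1*. The fold change was 5.42 (4.55 to 6.48), and 5.66% of the 2563 tested genes with 100 to 300 counts in wild type had a higher one. *Smarca5* (chromosome 8, 80699943 to 80739459), the ISWI ATPase of most dividing cells, had 182 counts in *tuft*, 28.3 CPM (24.3 to 32.7), and 614 in wild type, 43.1 CPM (39.7 to 46.6). With TMM its fold change of 0.863 (0.727 to 1.02) was not distinguishable from 1 by counting error. With library totals its log2 fold change was -0.61, so this depends on the scaling. The annotation names a transcribed pseudogene, *Smarca5-ps*, with 16 and 35 counts of its own. Reads that align to both it and *Smarca5* count for neither, and how many were lost in each library is not known.

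Ratios of 2 genes within a library need no scaling between libraries. *Smarca1* held 66.7% of the counts on both ATPases in *tuft* (exact binomial interval 62.6 to 70.7) and 24.2% in wild type (21.3 to 27.3). Per kilobase of exon, *Smarca1* stood at 2.55 times *Smarca5* in *tuft* (2.13 to 3.06) and at 0.406 times *Smarca5* in wild type (0.344 to 0.478). The order of the ATPases was thus opposite in the 2 libraries, by more than counting error, though the intervals do not cover *Smarca5* reads lost to its pseudogene. For the RNA of the 2 CERF genes, *Smarca1* stood at 6.30 times *Cecr2* per kilobase in *tuft* (5.13 to 7.78) and at 0.211 times in wild type (0.181 to 0.244). Against *Bptf*, the NURF partner, the ratio was 7.41 in *tuft* (5.98 to 9.24) and 0.186 in wild type (0.160 to 0.216).

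The windows of 250 bases before the annotated starts of 4 of the genes are shown because CpG dinucleotides are the substrate of DNA methylation and these windows differ most in them. They were read from RefSeq, build GRCm38.p6, 5′ to 3′ on the strand of the gene, with each CpG in capitals. *Smarca1* (chrX:47892614-47892863, minus strand) and *Smarca5* (chr8:80739460-80739709, minus strand) are the ATPases, *Bptf* (chr11:107132148-107132397, minus strand) is a lower gene, and *Baz2b* (chr2:60125741-60125990, minus strand) is a higher one.

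*Smarca1*: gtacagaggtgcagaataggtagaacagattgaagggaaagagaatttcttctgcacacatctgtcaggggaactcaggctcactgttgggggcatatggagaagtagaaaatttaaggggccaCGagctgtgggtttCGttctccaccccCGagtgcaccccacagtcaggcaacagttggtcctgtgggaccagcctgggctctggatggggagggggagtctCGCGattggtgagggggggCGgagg

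*Smarca5*: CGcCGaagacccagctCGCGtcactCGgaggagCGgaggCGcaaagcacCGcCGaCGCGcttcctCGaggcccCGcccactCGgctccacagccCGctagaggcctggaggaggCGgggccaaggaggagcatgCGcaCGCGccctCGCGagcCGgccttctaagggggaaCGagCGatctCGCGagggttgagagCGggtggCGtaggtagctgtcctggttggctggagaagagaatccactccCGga

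*Bptf*: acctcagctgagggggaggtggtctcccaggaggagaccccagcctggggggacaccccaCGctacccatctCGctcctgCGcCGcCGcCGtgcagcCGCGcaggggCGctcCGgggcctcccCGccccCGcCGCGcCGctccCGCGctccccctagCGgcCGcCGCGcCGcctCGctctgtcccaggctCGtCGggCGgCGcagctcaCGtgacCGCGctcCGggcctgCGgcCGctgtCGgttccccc

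*Baz2b*: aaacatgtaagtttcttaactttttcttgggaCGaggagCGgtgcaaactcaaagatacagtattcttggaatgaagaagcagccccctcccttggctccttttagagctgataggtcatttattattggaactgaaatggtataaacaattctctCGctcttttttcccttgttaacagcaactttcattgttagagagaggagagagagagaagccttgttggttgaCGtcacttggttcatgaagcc

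The window of *Smarca1* holds 6 CpG, searched as the letters CG, which read alike on both strands, and that of *Baz2b* holds 4. The *Smarca5* window holds 29 and the *Bptf* window 34, and those of *Baz1b* and *Baz2a* hold 20 each. Of the 32851 windows of this length in the table, 50.4% hold at least 6 CpG, 17.9% at least 20, 6.78% at least 29 and 3.53% at least 34. The *Baz2b* window precedes a start 84173 bases inside the outermost bounds of the gene, and that of *Baz2a* one 1413 bases inside. No window was available for *Cecr2*, *Baz1a* and *Rsf1*. The higher genes of the 6 with a window, *Smarca1* and *Baz2b*, had the fewest CpG. The *Baz2b* window is not at the outer start of its gene, however, and the lower genes *Cecr2* and *Baz1a* are not among these 6. Of all tested genes with a window, the 3733 with fewer than 15 CpG were at least 2-fold higher in *tuft* in 22.9% of cases and at least 2-fold lower in 43.6%. For the 5984 genes with 15 CpG or more these shares were 20.9% and 36.7%. Over all these genes, fewer CpG thus went with larger shares of both higher and lower genes, not of higher genes alone. DNA methylation was not measured in these libraries.

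*Bptf* (chromosome 11, 107033081 to 107132147), the largest subunit of NURF, whose PHD finger and bromodomain read methylated and acetylated histones, had 112 counts in *tuft*, 17.4 CPM (14.3 to 20.9), and 2393 in wild type, 168 CPM (161 to 175). It was 7.34-fold lower in *tuft* (6.07 to 8.95). Of the tested genes with 1000 to 3000 counts in wild type, 4.89% had a lower fold change. *Cecr2* of CERF and *Bptf* of NURF thus both had lower RNA levels in *tuft*, while *Smarca1* was higher. *Rsf1* (chromosome 7, 97579870 to 97692782), the histone-binding partner of SMARCA5 in RSF, had 115 counts in *tuft*, 17.9 CPM (14.8 to 21.5), and 658 in wild type, 46.2 CPM (42.7 to 49.8). It was 1.96-fold lower (1.61 to 2.42), just inside the 2-fold limit. With library totals in place of TMM its log2 fold change was -1.37 and with the upper quartile -1.02, both past the limit. Several of the genes overlap annotated loci without a row of counts: *Rsf1* (*Rsf1os1*, *Rsf1os2* and 2 pseudogenes), *Cecr2* (Gm52876), *Baz1a* (Gm51983 and Gm24296), *Baz2a* (Gm51821) and *Baz2b* (Gm13572, the protein-coding Gm13570 and *Ldha-ps*). As nothing states whether the counting used strand, reads of these loci and of the ISWI gene cannot be told apart.

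The BAZ genes form 2 pairs of paralogs, and in each pair the counts moved towards the B gene. *Baz1a* (chromosome 12, 54892989 to 55014371), which encodes the ACF1 subunit of ACF and CHRAC, had 20 counts in *tuft*, 3.11 CPM (1.90 to 4.80), and 627 in wild type, 44.0 CPM (40.6 to 47.6). This was the lowest fold change of the 9 genes, 0.0929 (0.0563 to 0.145), or 10.8-fold lower in *tuft* (6.91 to 17.7). Of the 4097 tested genes with 300 to 1000 counts in wild type, 10.9% had a lower one. *Baz1b* (chromosome 5, 135187323 to 135246131), which encodes WSTF and lies in the region deleted in Williams syndrome in humans, had 2147 counts in *tuft*, 334 CPM (320 to 348), and 5165 in wild type, 362 CPM (353 to 372). Its fold change was 1.21 (1.15 to 1.27) with TMM and its log2 fold change -0.12 with library totals, so its direction depends on the scaling. *Baz1b* made up 99.1% of the counts on both genes in *tuft* (98.6 to 99.4) and 89.2% in wild type (88.3 to 90.0).

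*Baz2a* (chromosome 10, 128091370 to 128129303), which encodes the TIP5 subunit of NoRC, had 224 counts in *tuft*, 34.8 CPM (30.4 to 39.7), and 3529 in wild type, 248 CPM (240 to 256). It was 5.41-fold lower in *tuft* (4.73 to 6.22), and 4.43% of the 813 tested genes with 3000 to 10000 counts in wild type had a lower fold change. *Baz2b* (chromosome 2, 59899363 to 60209913), a paralog with the same kind of bromodomain, had 357 counts in *tuft*, 55.5 CPM (49.9 to 61.6), and 501 in wild type, 35.2 CPM (32.1 to 38.4). Its fold change was 2.07 (1.81 to 2.38), an interval that reaches below 2, and with library totals the log2 fold change was 0.66, inside the limit. *Baz2b* held 61.4% of the counts on this pair in *tuft* (57.4 to 65.4) and 12.4% in wild type (11.4 to 13.5).

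**Figure D2:**
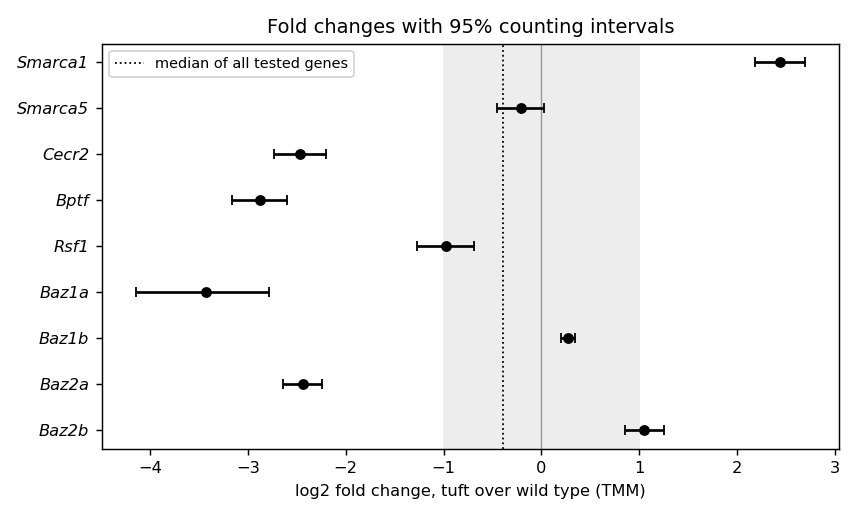
Log2 fold change of each gene, *tuft* over wild type with TMM scaling, with 95% Clopper-Pearson intervals for counting error. The grey band is the range inside the 2-fold limit and the dotted line the median of all tested genes (-0.39), and the intervals of *Cecr2*, *Bptf*, *Baz1a* and *Baz2a* end left of the band while that of *Smarca1* starts right of it.

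Among the 7 partners, *Baz1b* took 69.2% of the counts in *tuft* (67.6 to 70.9) and 34.7% in wild type (33.9 to 35.4), although its own level differed little. *Cecr2* took 4.06% in *tuft* (3.40 to 4.82) and 13.6% in wild type (13.0 to 14.2). *Bptf* took 3.61% (2.98 to 4.33) and 16.1% (15.5 to 16.7). *Baz1a*, *Baz2a* and *Rsf1* also had smaller shares in *tuft*, though for *Rsf1* the intervals of 3.07% to 4.43% and 4.09% to 4.76% overlap. *Baz1b* and *Baz2b* had larger ones. The ATPases together held 547 of the 3648 counts on all 9 genes in *tuft* (interval 13.9% to 16.2%) and 810 of 15708 in wild type (4.82% to 5.51%). All 9 genes together were 0.0567% of the counts on genes in *tuft* and 0.110% in wild type.

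**Figure D3:**
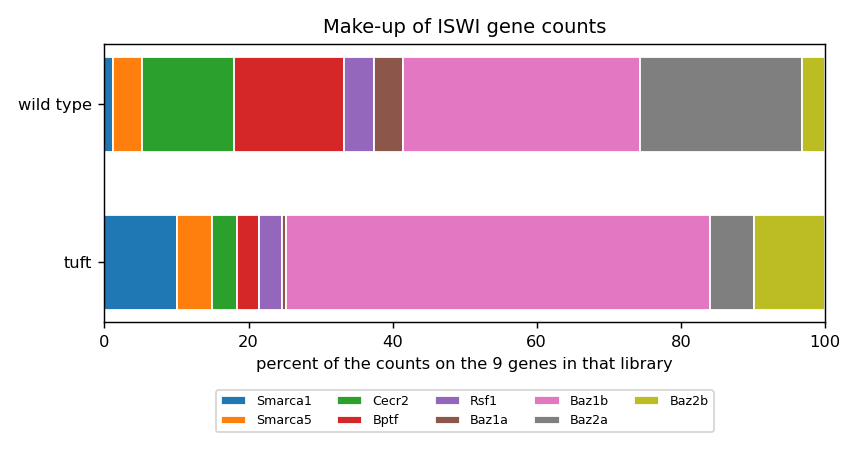
Share of each gene in the counts on the 9 genes, in percent, as 1 bar per library. *Baz1b* fills 58.9% of the *tuft* bar and 32.9% of the wild-type bar, and the segments of *Cecr2*, *Bptf* and *Baz2a* shrink together from 50.6% in wild type to 12.7% in *tuft*.

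Levels of different genes were compared per kilobase of exon, in TMM-normalized CPM per kilobase. *Baz1b* was the highest in both libraries, at 52.1 in *tuft* (49.9 to 54.4) and 43.0 in wild type (41.9 to 44.2). In wild type it was followed by *Baz2a* (25.4), *Bptf* (10.5), *Cecr2* (9.31), *Baz1a* (5.36), *Smarca5* (4.83), *Rsf1* (3.19), *Smarca1* (1.96) and *Baz2b* (1.74). Only *Baz1a* and *Smarca5*, and *Smarca1* and *Baz2b*, had overlapping intervals among neighbours in this order. In *tuft*, *Smarca1* came next after *Baz1b* at 10.6, followed by *Baz2a* (4.70), *Smarca5* (4.17), *Baz2b* (3.61), *Cecr2* (1.69), *Rsf1* (1.62), *Bptf* (1.44) and *Baz1a* (0.498). The intervals of *Baz2a* and *Smarca5*, of *Smarca5* and *Baz2b*, of *Cecr2* and *Rsf1*, and of *Rsf1* and *Bptf* overlapped there. *Smarca1* moved from place 8 to place 2, and *Cecr2* from place 4 to place 6. The *tuft* interval of *Cecr2* (1.41 to 2.01) also overlaps that of *Bptf* (1.18 to 1.73). Counting error thus does not settle the order of *Cecr2*, *Rsf1* and *Bptf* in *tuft*, nor that of *Smarca1* and *Baz2b* in wild type.

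The 9 genes have long exon models, from 6.12 kb for *Smarca1* to 17.6 kb for *Baz2b*. Of them, 4 lie between 6 and 8 kb and 5 at 8 kb or more. Longer genes were less often higher in *tuft*: 26.5% of the 2178 tested genes under 2 kb were at least 2-fold higher, against 18.6% of the 1396 genes of 6 to 8 kb and 17.4% of the 1375 genes of 8 kb or more. The shares at least 2-fold lower in these classes were 43.2%, 39.3% and 39.1%. Median log2 fold changes were -0.42, -0.44 and -0.49, with -0.35 for the 4277 genes of 2 to 4 kb and -0.38 for the 2934 genes of 4 to 6 kb. The part of length in the values of the ISWI genes was not tested.

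**Figure D4:**
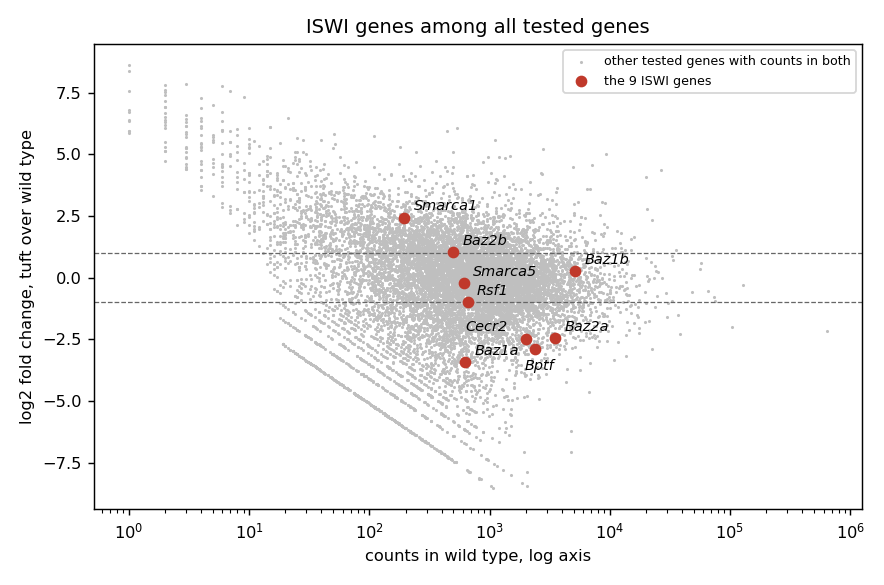
Log2 fold change against the counts in wild type (log axis) for tested genes with counts in both libraries (grey) and the 9 ISWI genes (red), with dashed lines at the 2-fold limit. The ISWI genes lie within the cloud, with *Cecr2*, *Bptf*, *Baz1a* and *Baz2a* in its lower part and *Smarca1* in its upper part.

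The smaller subunits of these complexes did not follow one direction. Of 7 accessory subunits, 2 were lower past the limit and 2 higher (28.6% each, against 39.3% and 22.6% of all tested genes). Another 3 were within it, and the median log2 fold change was 0.11 (the value of *Rbbp7*, which was -0.29 with library totals). The 4 past the limit are 57.1% of the list, against 61.9% of all tested genes. *Rbbp4*, a histone-binding WD40 protein of NURF that also serves in NuRD and PRC2, had 25683 counts in *tuft* against 9197 in wild type, 8.13-fold higher (7.94 to 8.33). Its paralog *Rbbp7* had counts of 1270 and 3433, and its fold change was 1.08 (1.01 to 1.15). The histone-fold pair of CHRAC split as well. *Chrac1* was 3.91-fold lower, with 86 and 980 counts, and *Pole3*, which is also a subunit of DNA polymerase epsilon, was 2.98-fold higher, with 766 and 748 counts. *Luzp1*, whose product has been found with CECR2, was 2.29-fold lower, with 278 and 1853 counts. *Hmgxb4* (fold change 1.58) and 0610010K14Rik (0.628) were within the limit, the latter past it with library totals at a log2 fold change of -1.07.

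Of 7 factors that join WSTF or TIP5 complexes at ribosomal genes, 4 were lower past the limit (57.1%, against 39.3% of all tested genes). Only 1 was higher (14.3%, against 22.6%), and the median log2 fold change was -1.02, against -0.39 for all tested genes. The 5 past the limit are 71.4% of the list, against 61.9% of all tested genes. *Ddx21*, an RNA helicase of the nucleolus, had 426 counts in *tuft* against 6668 in wild type, and its fold change was 0.186 (0.168 to 0.205). *Sf3b1*, better known as a splicing factor, was 3.25-fold lower, *Ercc6*, the Cockayne syndrome ATPase, 2.09-fold and *Mybbp1a*, with 3392 and 20069 counts, 2.03-fold. The values of *Ercc6* and *Mybbp1a* are close to the limit, and with DESeq2 size factors the log2 fold change of *Mybbp1a* was -0.98, inside it. *Myo1c*, a myosin gene, was higher, with 857 and 1136 counts and a log2 fold change of 1.14, which was 0.74 with library totals and then inside the limit. *Dek* (0.852) and *Ttf1* (0.698) were within the limit.

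The study names 4 genes of neural tube closure or head development together with *Cecr2*. Of these, *Dlx5*, a homeobox gene of the anterior neural ridge and facial mesenchyme, was past the limit, with 426 counts in *tuft* against 313 in wild type, 3.96-fold higher (3.42 to 4.60). *Epha7*, an ephrin receptor of the neural folds, had counts of 543 and 920 and a fold change of 1.72 (1.54 to 1.91). *Grhl2*, a transcription factor of the surface ectoderm, had counts of 219 and 434 and a fold change of 1.47 (1.24 to 1.73). *Alx1*, a homeobox gene of head mesenchyme, had counts of 92 and 468 and a fold change of 0.572 (0.453 to 0.717). With TMM none of the 4 was at least 2-fold lower, against 39.3% of all tested genes. The interval of *Alx1* reaches past the limit, and with library totals its log2 fold change was -1.20, past it. The study cites lower *Alx1*, *Dlx5* and *Epha7* RNA after disruption of *Cecr2*. By qPCR of single embryos it reports lower *Cecr2*, *Grhl2* and *Epha7* RNA in some *tuft* embryos. In the counts here, with TMM, *Epha7*, *Grhl2* and *Dlx5* were higher in *tuft*, opposite to these reports, while *Cecr2* and *Alx1* were lower. These counts come from pooled RNA, which cannot show single embryos, and why the directions differ was not tested.

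Other chromatin remodelers and other bromodomain genes give the setting. Among 25 SNF2-type ATPases outside the ISWI family, 10 were lower past the limit (40.0%, against 39.3% of all tested genes). Another 2 were higher (8.0%, against 22.6%), and the list had a median log2 fold change of -0.46. The lowest was *Chd6*, with 11 counts in *tuft* against 1138 in wild type, and the highest *Chd5*, with 191 and 41. *Smarca2*, the BAF ATPase BRM, was 5.15-fold higher (4.40 to 6.03), close to the 5.42-fold of *Smarca1*, while its paralog *Smarca4* (BRG1) had a fold change of 1.51 (1.46 to 1.57). Among 27 tested bromodomain genes outside the family, 10 were lower past the limit (37.0%, against 39.3%). Another 4 were higher (14.8%, against 22.6%), and the list had a median of -0.29. *Brwd3* had no count in *tuft* against 372 in wild type. With 3 counts taken for the 0 it was 42.6-fold lower, and its Clopper-Pearson interval begins at 34.5-fold lower. *Brd3*, a BET protein, was the highest at 2.78-fold. The ISWI genes had a lower median than both lists, and this difference was not tested.

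**Figure D5:**
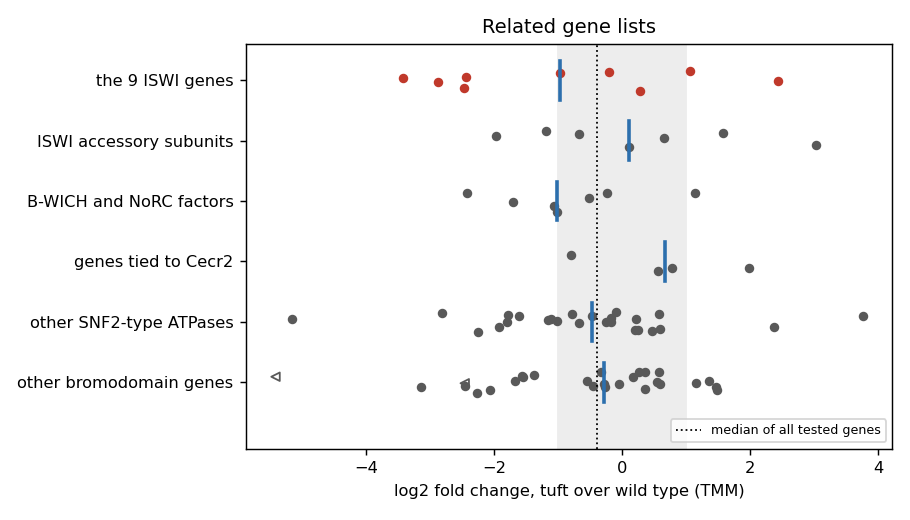
Log2 fold change of each tested gene of the 9 ISWI genes (red) and of 5 related lists (grey), with the median of each list as a blue line, the range inside the 2-fold limit in grey and the median of all tested genes dotted. Open triangles are genes without a count in *tuft*, drawn at 3 counts, and each list except the genes tied to *Cecr2* has points on both sides of the grey band.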

How the data were processed

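Pooled RNA of the rostrum was sequenced from *tuft* and wild-type embryos, and 1 column of counts per genotype was available. The authors deposited raw counts per gene symbol, made from single-end Ion Proton reads that were trimmed with PRINSEQ, aligned to UCSC mm10 with TopHat2 2.0.14 and Bowtie2 2.2.5 and counted with htseq-count. The release of the gene models, the overlap mode and the strand setting are not given in the sources used here. Alignments at more than 1 place made up 59.2% (*tuft*) and 51.4% (wild type) of the entries. These and the other summary lines of htseq-count were left out.

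Scaling factors came from edgeR 4.0.16 and DESeq2 1.42.0 in R 4.3.3 and everything else from Python 3.11.15. The TMM factor of *tuft* over that of wild type was 0.761. With 1 library per genotype no model was fitted. NOISeq-sim, the authors' caller, was not run, because its noise comes from simulated libraries. Folds were taken across all genes with 20 counts or more over both libraries summed, and a count of 0 was set to 3 counts. The fold calculation was tested on simulated data that held counting error only and few changed genes, unlike these libraries.

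The genes, the lists and the rule for named genes (all 9 members, 6 further lists, the highest and lowest of long lists and the 3 genes nearest *Cecr2*) were chosen with earlier results of these data known. *Smarca2*, *Smarca4* and *Tet1* are named from these lists, the first 2 after their values were seen. Exon lengths are the union of exons in the NCBIM37 annotation, which covers 93.4% of the tested genes, and positions, overlaps and promoter windows come from RefSeq of GRCm38.p6. Reads had no molecular identifiers, so intervals cover only counting error. Alternatives were other scalings, count minima, fold limits and values for a count of 0.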

Additional observations from a re-analysis of the deposited data

How the results depend on the processing

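No value has a replicate, so the alternatives show the effect of processing and not the spread between embryos. *Cecr2*, *Bptf*, *Baz1a* and *Baz2a* remained past the 2-fold limit and lower, and *Smarca1* past it and higher, under library totals, the upper quartile and DESeq2 size factors. The other count minima and a count of 0 set to 1 could not change these genes, which each have over 100 counts in the libraries together and none at 0. They were also past a limit of 4-fold, and their whole intervals were beyond 2-fold. *Baz2b* alone left the higher genes, so that 1 gene was higher past the limit with library totals, with a 4-fold limit and with whole intervals. *Rsf1* joined the lower genes with library totals, the upper quartile and a limit of 1.5-fold. The median log2 fold change of the 9 genes was -1.37 with library totals, -1.02 with the upper quartile and -0.93 with DESeq2 size factors. Library totals shift every log2 fold change by -0.39, and with them 45.9% of the tested genes were lower and 16.7% higher. Chosen after seeing the data, the same scalings were applied to the related lists, where 9 calls of single genes changed, 7 of them with library totals. The share of tested genes past the limit was 33.4% at 4-fold. The lower total of counts on genes in *tuft* limits *Baz1a* most, since its value rests on 20 counts.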
